A study of Mus musculus with 12 samples.

Results

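The genes described here build, watch and clean up the folding machinery of the endoplasmic reticulum (ER) in mouse liver. They are 42 of the 17432 genes in the deposited table, picked by symbol for their known roles, and all 42 had enough reads to be tested. The list holds 12 ER chaperones and cochaperones, 10 members of the calnexin cycle, disulfide isomerases and prolyl isomerase, 8 sensors, proteases and transcription factors of the unfolded protein response (UPR), 9 genes of ER-associated degradation (ERAD) and 3 translocon genes. Total liver RNA was sequenced from 12 male wild-type C57BL/6J mice, 6 labelled Exercise and 6 labelled Sedentary. The mice were 8 to 10 weeks old and spent 3 days on a synchronized feeding schedule of daytime food and nightly fasting. All 12 were refed before the experiment. The Exercise group then ran on a treadmill at 14 m/min for 3 hours, and the Sedentary mice rested with their food taken away for the same time. The comparison therefore asks what a bout of moderate aerobic running does in a liver that has just been fed. No gene was modified in either group, and each group is 1 sex, 1 strain and 1 time point. Libraries held 18971992 to 19324461 counts in the Sedentary group and 18745379 to 19001010 in the Exercise group.

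The liver makes most proteins of the blood plasma, and they enter the ER through the Sec61 translocon. Many are glycosylated or oxidised there, and in general they leave only once folded. HSPA5 (also called BiP) holds unfolded chains with its J-domain partners, the calnexin cycle retains glycoproteins until they fold, and disulfide isomerases set their cysteine bonds. When unfolded protein accumulates, sensors in the ER membrane respond. IRE1 (Ern1) splices Xbp1 mRNA to yield an active transcription factor, ATF6 is cut free in the Golgi by the proteases encoded by Mbtps1 and Mbtps2, and PERK (Eif2ak3) slows translation and favours ATF4. Chains that cannot fold are passed back to the cytosol through the ubiquitin ligase HRD1 (Syvn1) with its partner SEL1L and are degraded by the proteasome. In liver a meal is known to induce ER chaperones, so the baseline of this comparison is a recently fed liver, not a fasted one.

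ATF6 and XBP1 act on a short promoter element, the ER stress response element (ERSE), made of a CCAAT box for the factor NF-Y, a spacer and the letters bound by the stress factor. Its promoter matches are shown because they mark members with an exact copy of the known UPR element and can be set beside the changes below. Only exact letters were searched, so a member without a match may hold a variant or a more distant copy. The search used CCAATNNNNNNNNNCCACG on either strand of RefSeq promoter windows (GRCm38.p6), each with 250 bases before and 50 after the annotated start. Of the 42 genes, 35 had a window. The element was found in 0.119% of the 32851 windows of all genes and in 9 of the 35 members, Syvn1, Creld2, Hspa5, Dnajc3, Pdia6, Canx, Hsp90b1, Derl3 and Calr. The element was first defined in promoters of such chaperone genes, so its presence here is a description and no finding. The 8 with the largest fold changes are printed 5′ to 3′ on the strand of the gene, with the element in capitals.
Syvn1: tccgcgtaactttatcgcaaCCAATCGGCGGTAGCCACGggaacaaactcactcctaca
Creld2: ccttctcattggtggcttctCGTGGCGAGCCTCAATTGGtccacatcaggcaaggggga
Hspa5: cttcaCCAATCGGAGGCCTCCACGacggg
Dnajc3: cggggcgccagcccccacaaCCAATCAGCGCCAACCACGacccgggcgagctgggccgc
Pdia6: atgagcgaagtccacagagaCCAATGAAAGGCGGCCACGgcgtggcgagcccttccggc
Canx: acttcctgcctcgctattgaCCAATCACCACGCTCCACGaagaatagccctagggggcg
Hsp90b1: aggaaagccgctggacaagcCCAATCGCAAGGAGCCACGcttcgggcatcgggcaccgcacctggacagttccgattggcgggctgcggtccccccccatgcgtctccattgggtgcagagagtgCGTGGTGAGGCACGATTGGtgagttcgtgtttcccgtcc
Derl3: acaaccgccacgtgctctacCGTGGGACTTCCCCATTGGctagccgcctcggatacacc

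The Syvn1 stretch lies at chr19:6046512-6046570 (plus strand) and its element ends 26 bases before the RefSeq start. The Creld2 stretch is at chr15:88819500-88819558 (plus) and holds the element in reverse orientation, 126 to 108 bases before the start. The Hspa5 stretch is at chr2:34772020-34772048 (plus), 65 to 47 bases before the RefSeq start, where GENCODE M21 also places a longer Hspa5 exon. The Dnajc3 stretch is at chr14:118937807-118937865 (plus), the Pdia6 stretch at chr12:17266471-17266529 (plus) and the Canx stretch at chr11:50325780-50325838 (minus). Hsp90b1, at chr10:86705513-86705676 (minus), carried the element in both orientations, with the nearer copy 107 to 89 bases before the start. Derl3, at chr10:75893222-75893280 (plus), carried it in reverse orientation 156 to 138 bases before the start.

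A related arrangement, ERSE-II, has the letters ATTGGNCCACG, where ATTGG is the CCAAT box read on the other strand. It was found in 0.0365% of all windows and in 2 members, Herpud1 and Dnajb11, the latter just past its start. The Herpud1 match is shown because this gene changed most among the 42, and it was chosen after its value was seen. The stretch lies at chr8:94386357-94386407 (plus), with the element 52 to 42 bases before the start.
Herpud1: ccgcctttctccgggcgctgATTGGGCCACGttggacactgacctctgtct

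The element named UPRE (TGACGTGG, which shares its last 5 letters with a reversed ERSE) occurred in 0.676% of windows and in 1 member, Txndc5. The cyclic AMP element TGACGTCA (1.79% of windows) and the glucocorticoid element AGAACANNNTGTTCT (0.00913% of windows) matched 0 of the 35 members in these windows. With elements this rare, 0 matches among 35 genes are no surprise, so no conclusion is drawn from them.

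After exercise 22 of the 42 genes were higher, 3 were lower and 17 did not pass the test (edgeR quasi-likelihood test, Benjamini-Hochberg adjusted p under 0.05 over all 12344 genes tested). Most chaperones rose, with Creld2, Dnajb9, Hyou1, Manf and Hspa5 each at 1.6-fold or more. The ERAD genes Herpud1 and Syvn1 rose more, 3.04-fold and 2.15-fold. Xbp1, Atf6b and Dnajc10 fell. The share higher was 52.4% and the share lower 7.14%. Among all genes tested 42.4% passed in either direction, 21.1% higher and 21.3% lower. The median log2 fold change was 0.22 over the 42 genes and -0.0028 over all genes tested. In 10 of the 42 genes every exercised liver lay above every sedentary liver, and in 1 every exercised liver lay below. Over all genes tested those separations held for 11.7% and 10.6%. In bulk tissue, fewer cells of a type and less RNA per cell cannot be told apart.

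Exercise liver 1 differed from its group in a gene outside the pathway. It had 106 counts of the cardiac myosin gene Myh6, against 0 in each other exercised liver and 85 to 212 in the sedentary livers. It was also the highest exercised liver for 26 of the 42 genes. Without it, 17 genes were higher and 4 lower (2554 and 2466 over all genes tested), and the median log2 fold change of the 42 was 0.21. The 5 genes that no longer passed without it were Creld2, Hsp90b1, Uggt1, Eif2ak3 and Edem1, and Txndc5 became a lower gene.

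**Figure D1:**
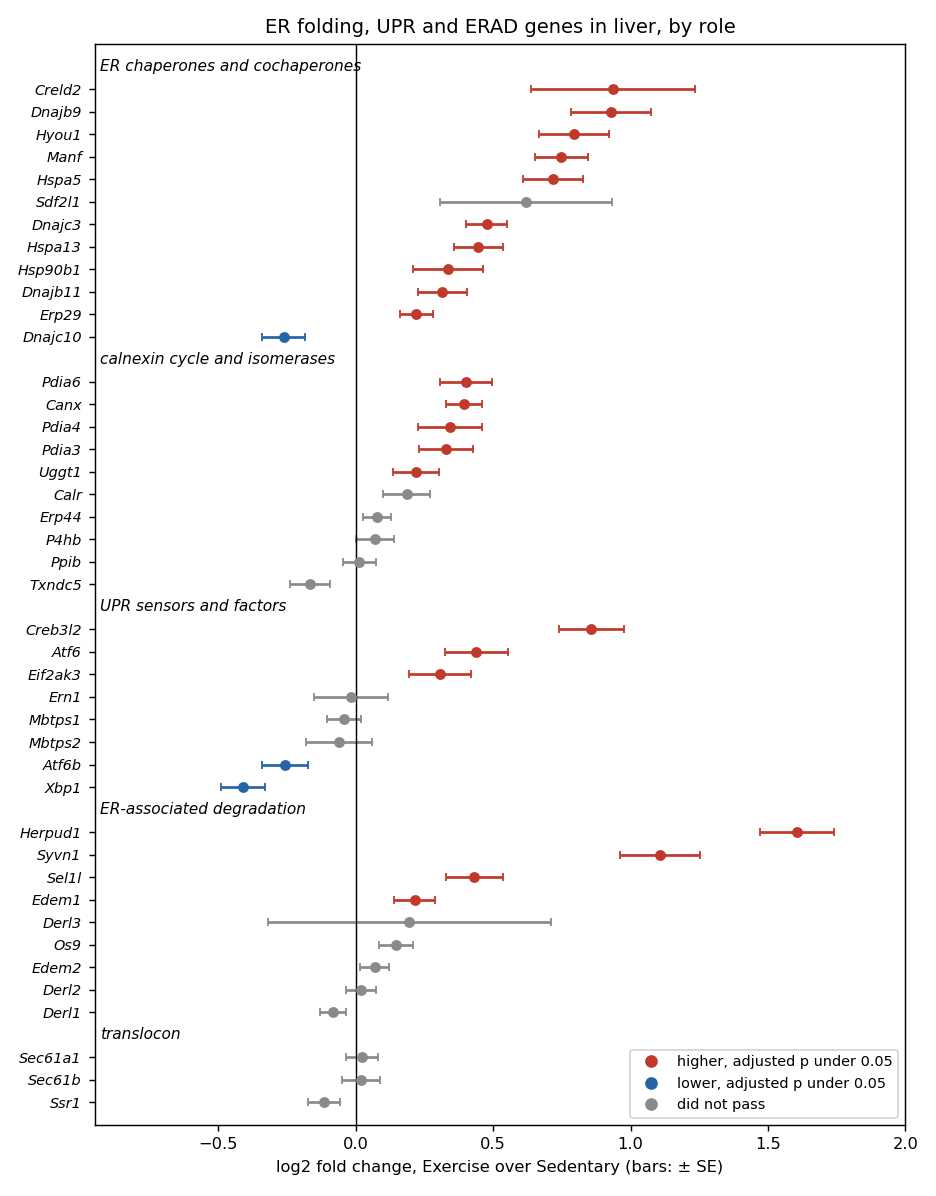
Log2 fold change of Exercise over Sedentary (horizontal axis) for the 42 genes, grouped by role, with bars of ± 1 SE from the edgeR fit on 6 livers a group. Red points passed the test as higher, blue as lower and grey did not pass. Herpud1 at 1.61 and Syvn1 at 1.11 lie farthest to the right, and Xbp1 at -0.41 lies farthest to the left.

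The chaperones and cochaperones moved most as a group. Of the 12, 10 were higher, 1 was lower and 1 did not pass, and the median log2 fold change was 0.55. The groups did not overlap for 5 of them. Without Exercise liver 1, 8 were higher and 1 lower. Over all genes tested and with all livers, 21.1% were higher, 21.3% lower, and 11.7% higher without overlap.

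Hspa5 encodes BiP, the HSP70 of the ER, which also binds the UPR sensors. It lies on the plus strand at chr2:34771970-34777547. Its level in the sedentary livers ran from 394 CPM (counts relative to the library total, scaled between libraries) through a median of 442 to 563. In the exercised livers it ran from 643 through 715 to 1012 CPM. The groups did not overlap, and the highest exercised liver was liver 1. Hspa5 was 1.65-fold higher (log2 0.72 ± 0.109 SE, edgeR adjusted p = 7.8e-05). Leaving out any liver kept the log2 fold change between 0.63 and 0.78.

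Hyou1 encodes GRP170, a large HSP70 relative that exchanges the nucleotide of BiP. Its level was 87.6, 99.3 and 136 CPM at the lowest, median and highest sedentary liver, and 151, 175 and 250 CPM after exercise. Here too every exercised liver was above every sedentary liver. Hyou1 was 1.73-fold higher (log2 0.79 ± 0.128 SE, edgeR adjusted p = 0.000226).

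Dnajb9 encodes ERdj4, a J-domain partner of BiP that is known to bind IRE1. Its sedentary levels were 22.3, 32.8 and 38.5 CPM at the lowest, median and highest liver, and its exercised levels 46.6, 57.9 and 76.7 CPM. The groups did not overlap, with a log2 fold change of 0.93 (± 0.145 SE, edgeR adjusted p = 0.000236). The sedentary livers were in a different order from that of Hspa5, since sedentary livers 5 and 6 were the highest for Dnajb9 and liver 3 the lowest.

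Creld2, a disulfide isomerase induced by ER stress, varied more between mice than the other chaperones that rose. It was at 23.8, 36.4 and 76.9 CPM at the lowest, median and highest sedentary liver and at 64.9, 79.2 and 125 CPM after exercise. The groups overlapped through sedentary liver 1, at 76.9 CPM, and sedentary liver 3, at 63.6 CPM, lay just under the exercised range. The fold change was 1.91 (log2 0.94 ± 0.297 SE, edgeR adjusted p = 0.0272). This call was lost when Exercise liver 1 (adjusted p = 0.0562) or sedentary liver 2 (0.057), 4 (0.0552) or 5 (0.0517) was left out, with log2 fold changes of 0.80, 0.89, 0.88 and 0.85.

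Hsp90b1 encodes GRP94, the HSP90 of the ER. Its sedentary levels were 452, 546 and 769 CPM and its exercised levels 637, 699 and 890 CPM, again the lowest, the median and the highest. Sedentary livers 1 and 3 lay inside the exercised range. Its fold change was 1.26 (log2 0.34 ± 0.126 SE, edgeR adjusted p = 0.0453). The call was lost without any of Exercise livers 1, 2, 3 and 5 or sedentary livers 2, 4, 5 and 6, with adjusted p up to 0.0971 and log2 fold changes of 0.27 to 0.36.

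The other chaperones that rose were Manf, a secreted and ER-resident protein induced by ER stress (1.68-fold), the BiP cochaperone Dnajc3 (1.39-fold), Hspa13 (1.36-fold), the J-domain protein Dnajb11 (1.24-fold) and Erp29 (1.16-fold). Manf and Dnajc3 had no overlap between the groups. Manf overlaps Rbm15b on its own strand in GENCODE M21, by 6511 bases, so counting by strand would not separate them. On the other strand Manf overlaps Dcaf1, and Erp29 overlaps Naa25 and Tmem116. The sources used here do not state whether counting used strand, so their reads may be shared. The same limit holds for Hsp90b1, Dnajb11 and Eif2ak3. On the other strand they overlap 1810014B01Rik by 4598 bases, Gm30505 by 4652 and Gm43292 by 2449. Ppib overlaps Snx22 by 1448 bases and Txndc5 overlaps Gm31834 by 1422, also on the other strand. Mbtps2 overlaps Yy2 by 2867 bases on its own strand.

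Dnajc10 encodes ERdj5, a J-domain protein that also reduces disulfides before degradation, and it went against the group. It was at 10.8, 12.8 and 14.3 CPM at the lowest, median and highest sedentary liver and at 9.70, 10.7 and 11.7 CPM after exercise. All 6 exercised livers were below the sedentary mean, and 4 were below the lowest sedentary liver. Dnajc10 fell by 0.26 on the log2 scale (± 0.0786 SE, edgeR adjusted p = 0.0123), a level 16.6% lower.

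Sdf2l1, an ER cochaperone known to rise in the liver on feeding, did not pass the test and is described for its spread, having been chosen after its values were seen. Its level was 8.20, 15.7 and 31.7 CPM at the lowest, median and highest sedentary liver, and 23.4, 27.3 and 37.4 CPM after exercise. Sedentary livers 1 and 3, at 28.8 and 31.7 CPM, lay inside the exercised range and the other 4 lay below it. The log2 fold change was 0.62 ± 0.314 SE (edgeR adjusted p = 0.141). Sdf2l1 passed with all livers by limma-voom (log2 0.76, adjusted p = 0.0255), and by edgeR without sedentary liver 3 (log2 0.84, adjusted p = 0.0453).

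**Figure D2:**
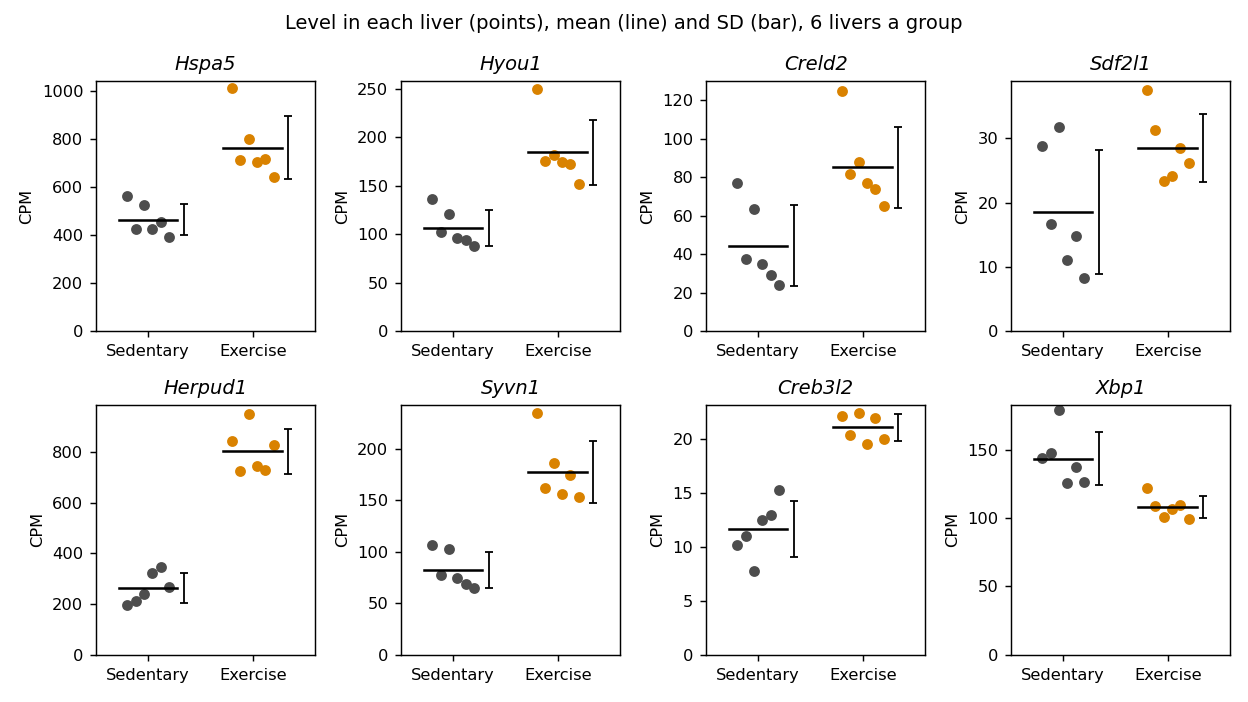
Level of 8 genes in each liver in CPM (vertical axes, from 0), with points for the 6 Sedentary (grey) and 6 Exercise (orange) livers, a line at the mean and a bar of ± 1 SD. Hspa5, Hyou1, Herpud1, Syvn1 and Creb3l2 were higher without overlap, Xbp1 was lower without overlap, Creld2 overlapped through sedentary liver 1, and Sdf2l1 through sedentary livers 1 and 3.

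Of the 10 genes of the calnexin cycle and the isomerases, 5 were higher, 0 lower and 5 did not pass, with a median log2 fold change of 0.20. Those that rose were Pdia6, Canx, Pdia4, Pdia3 and Uggt1. Without Exercise liver 1, 4 were higher and 1 (Txndc5) was lower.

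Pdia6 encodes a disulfide isomerase that works with BiP. It was at 145, 178 and 217 CPM at the lowest, median and highest sedentary liver and at 220, 237 and 269 CPM after exercise. The highest sedentary liver fell just short of the lowest exercised liver, so the groups did not overlap. Pdia6 was 1.32-fold higher (log2 0.40 ± 0.0938 SE, edgeR adjusted p = 0.00242).

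Canx encodes calnexin, the membrane lectin that retains newly made glycoproteins. Its sedentary levels were 173, 191 and 215 CPM and its exercised levels 227, 252 and 283 CPM, as the lowest, the median and the highest. The groups did not overlap, with a fold change of 1.31 (log2 0.39 ± 0.0655 SE, edgeR adjusted p = 0.000113).

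Pdia4 encodes ERp72, another disulfide isomerase. Its level was 89.1, 104 and 133 CPM at the lowest, median and highest sedentary liver and 119, 130 and 177 CPM after exercise. Exercise liver 1, at 177 CPM, was the only exercised liver above the highest sedentary liver. The fold change was 1.27 (log2 0.34 ± 0.115 SE, edgeR adjusted p = 0.0264). The call was lost without sedentary liver 2 (adjusted p = 0.0603), 4 (0.055) or 6 (0.0538), with log2 fold changes of 0.31, 0.30 and 0.30.

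Pdia3, the isomerase of calnexin and calreticulin clients, was 1.26-fold higher, and Uggt1, which returns unfolded glycoproteins to the cycle, was 1.16-fold higher. Pdia3 kept its call without each liver in turn, while Uggt1 lost it without Exercise livers 1, 2, 3 and 5 and sedentary livers 2, 4 and 6 (log2 0.17 to 0.23, edgeR adjusted p 0.0517 to 0.0993). Calr, Erp44, P4hb and Ppib had log2 fold changes of 0.19, 0.08, 0.07 and 0.01, and Txndc5 of -0.17. P4hb, the chief disulfide isomerase, and Calr, the soluble partner of calnexin, were the most abundant of the 42 per transcript length in the sedentary livers, at 437 ± 30.1 and 402 ± 56.9 FPKM (fragments scaled for transcript length and library depth, mean ± SD, n = 6), and neither passed. Their difference was smaller than the SD of Calr. Calr passed without sedentary liver 1 (log2 0.23, edgeR adjusted p = 0.0465) or 3 (log2 0.24, edgeR adjusted p = 0.0294).

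The UPR sensors and factors moved in both directions. Of the 8 genes, Creb3l2, Atf6 and Eif2ak3 were higher, Xbp1 and Atf6b were lower, and Ern1, Mbtps1 and Mbtps2 did not pass. The median log2 fold change was -0.03, and 37.5% were higher and 25.0% lower, against 21.1% and 21.3% over all genes tested.

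Xbp1 encodes the transcription factor that IRE1 activates by splicing. It lies on the plus strand at chr11:5520659-5525893. Its sedentary levels were 126, 141 and 179 CPM at the lowest, median and highest liver, and its exercised levels 99.6, 107 and 122 CPM. Every exercised liver was below every sedentary liver, the reverse of Hspa5. Xbp1 fell by 0.41 on the log2 scale (± 0.079 SE, edgeR adjusted p = 0.000439), a level 24.8% lower. A gene total does not separate the spliced from the unspliced form, so it does not measure the activity of IRE1.

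Ern1 encodes that sensor, IRE1 alpha. Its level was 19.5, 30.8 and 37.0 CPM at the lowest, median and highest sedentary liver and 25.6, 28.5 and 33.4 CPM after exercise. The exercised livers lay inside the sedentary range. The log2 fold change was -0.02 ± 0.135 SE (edgeR adjusted p = 0.933), and its sign changed with the liver left out.

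Atf6, the sensor that becomes a transcription factor after cleavage, was at 38.7, 49.5 and 57.0 CPM at the lowest, median and highest sedentary liver. After exercise it was at 55.6, 63.8 and 89.7 CPM, and 5 of the 6 exercised livers were above every sedentary liver. Atf6 was 1.36-fold higher (log2 0.44 ± 0.114 SE, edgeR adjusted p = 0.00617). Exercise liver 3 was the highest for this gene, at 89.7 CPM.

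Atf6b, its paralog, went the other way. It was at 17.4, 22.0 and 24.7 CPM at the lowest, median and highest sedentary liver and at 16.7, 17.5 and 19.6 CPM after exercise. All 6 exercised livers were below the sedentary mean. Atf6b fell by 0.26 on the log2 scale (± 0.0828 SE, edgeR adjusted p = 0.0186), and the call was lost without sedentary liver 3 (log2 -0.21, edgeR adjusted p = 0.0508).

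Eif2ak3, which encodes PERK, was at 7.14, 8.72 and 9.30 CPM at the lowest, median and highest sedentary liver and at 8.25, 9.64 and 13.2 CPM after exercise. Exercise livers 1 and 3 were well above the rest. Eif2ak3 was 1.24-fold higher (log2 0.31 ± 0.114 SE, edgeR adjusted p = 0.0378). The call was lost without Exercise liver 1 (log2 0.23, adjusted p = 0.0998) or 3 (0.24, adjusted p = 0.0943) and without sedentary liver 2 (0.31, adjusted p = 0.0555), 3 (0.26, adjusted p = 0.086) or 4 (0.29, adjusted p = 0.0683). With all livers Eif2ak3 also missed the threshold by limma-voom (adjusted p = 0.0582).

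Creb3l2 encodes BBF2H7, a membrane-bound transcription factor of the ATF6 kind that promotes genes of ER export. It lies on the minus strand at chr6:37327255-37442146. Its sedentary levels were 7.75, 11.8 and 15.3 CPM at the lowest, median and highest liver, and its exercised levels were 19.5, 21.1 and 22.4 CPM. The groups did not overlap, and the exercised livers lay close together, the highest at 1.15 times the lowest against 1.97 times in the sedentary group. Creb3l2 rose 1.81-fold (log2 0.86 ± 0.117 SE, edgeR adjusted p = 2.7e-05).

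The proteases of ATF6 and related factors, Mbtps1 and Mbtps2, had log2 fold changes of -0.04 and -0.06.

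In ER-associated degradation 4 of 9 genes were higher (44.4%), 0 lower and 5 did not pass. Over all genes tested 21.1% were higher and 21.3% lower. The median log2 fold change of the 9 genes was 0.20. The ligase and its direct partners Herpud1 and Sel1l rose, whereas the 3 Derlins did not pass.

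Herpud1 encodes a membrane protein that gathers the HRD1 complex and is itself turned over quickly. It lies on the plus strand at chr8:94386438-94395377 and overlaps the antisense gene Gm15890, with which its reads may be shared if counting ignored strand. Its level was 196, 253 and 346 CPM at the lowest, median and highest sedentary liver and 724, 784 and 947 CPM after exercise. The lowest exercised liver was above the highest sedentary liver by more than the whole sedentary range. The fold change was 3.04 (log2 1.61 ± 0.135 SE, edgeR adjusted p = 8.38e-07), the largest of the 42. Per transcript length Herpud1 went from 142 ± 28.4 to 406 ± 31.8 FPKM (mean ± SD, n = 6), so that after exercise only P4hb (429 ± 23.2 FPKM) and Calr (429 ± 38.8 FPKM) among the 42 had a higher mean, each by less than the SD of Herpud1.

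Syvn1 encodes HRD1, the ubiquitin ligase at the centre of the pathway. It lies on the plus strand at chr19:6046576-6053712 and overlaps Mrpl49 on the other strand, with the same limit. Its level was 65.0, 75.7 and 107 CPM at the lowest, median and highest sedentary liver and 153, 168 and 234 CPM after exercise. The groups did not overlap, with Exercise liver 1 again the highest. Syvn1 rose 2.15-fold (log2 1.11 ± 0.145 SE, edgeR adjusted p = 5.96e-05).

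Sel1l encodes the partner that stabilises HRD1. It was at 101, 107 and 133 CPM at the lowest, median and highest sedentary liver and at 130, 142 and 191 CPM after exercise. Of the 6 exercised livers, 4 were above every sedentary liver. Sel1l rose 1.35-fold (log2 0.43 ± 0.104 SE, edgeR adjusted p = 0.00346).

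Edem1, a lectin that directs misfolded glycoproteins to degradation, was 1.16-fold higher (log2 0.22 ± 0.0739 SE, edgeR adjusted p = 0.026), a call lost without Exercise liver 1 (log2 0.20, adjusted p = 0.0501) or sedentary liver 1 (0.19, adjusted p = 0.054), 2 (0.18, adjusted p = 0.0609) or 3 (0.18, adjusted p = 0.0657). Edem2 had a log2 fold change of 0.07, and the lectin Os9 of 0.15, which missed the threshold (edgeR adjusted p = 0.0583) but passed with all livers by DESeq2 (adjusted p = 0.035) and limma-voom (adjusted p = 0.0468), and by edgeR without sedentary liver 5 (log2 0.20, adjusted p = 0.00833). Derl1, Derl2 and Derl3, channel components of the pathway, had log2 fold changes of -0.08, 0.02 and 0.20. Derl3 was scarce and varied most among the 42, from 0.397 to 4.10 CPM in the sedentary livers and from 1.10 to 3.01 CPM after exercise. It was singled out after its values were seen. Sedentary livers 1 and 3 were its highest in that group, as they were for Creld2 and Sdf2l1.

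The 3 translocon genes stayed outside the test's threshold. Sec61a1, the channel subunit, was at 94.6, 110 and 114 CPM at the lowest, median and highest sedentary liver and at 102, 109 and 116 CPM after exercise, and the groups overlapped almost wholly. Ssr1, of the translocon-associated complex, was at 93.9, 98.0 and 104 CPM in the sedentary livers and at 81.2, 89.8 and 99.7 CPM after exercise, where 4 livers lay below the lowest sedentary liver. The log2 fold changes were 0.02 ± 0.0582 SE for Sec61a1, 0.02 ± 0.0692 SE for Sec61b and -0.12 ± 0.0572 SE for Ssr1 (edgeR adjusted p = 0.774, 0.856 and 0.114).

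**Figure D3:**
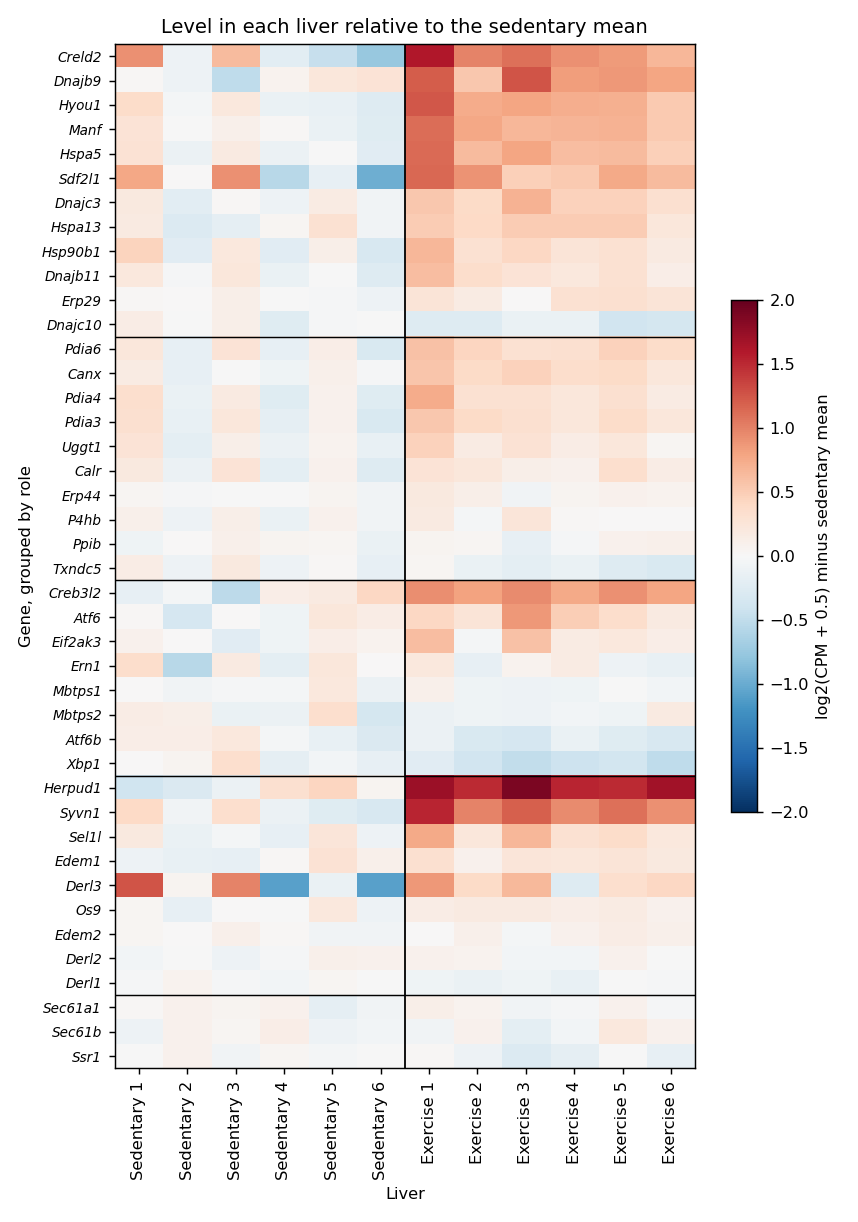
Each row is a gene, grouped by role, and each column is a liver. Colour gives log2(CPM + 0.5) minus the mean of the 6 Sedentary livers, from -2 (blue) to 2 (red). The Exercise columns are red for Herpud1, Syvn1, Creb3l2 and most chaperones other than Dnajc10. Changes as small as that of Erp29 (log2 0.22) are pale on this scale. Erp29 in Exercise liver 3 (40.5 CPM) is close to the sedentary mean (40.3 CPM). Sedentary livers 1 and 3 are red for Creld2, Sdf2l1 and Derl3, and Exercise liver 1 is the highest exercised liver for 26 of the 42 genes.

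The sedentary mice differed from each other more than the exercised mice did. The median SD of the 42 genes on the log2 scale was 0.185 in the sedentary and 0.118 in the exercised livers, and the SD was larger in the sedentary group for 30 genes (71.4%). Over all genes tested these values were 0.157, 0.139 and 59.1%. Sedentary livers 1, 3 and 5 were the highest of their group for 14, 11 and 11 genes, and sedentary liver 6 was the lowest for 21. Within the chaperones, sedentary livers 1 and 3 were the highest for 7 and 3 of the 12. Among the UPR sensors and the ERAD genes, sedentary liver 5 was the highest for 4 and 5.

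Summed over the 42 genes, the level was 2567 to 3231 FPKM in the sedentary livers (median 2788) and 3261 to 3909 FPKM in the exercised livers (median 3434). That was 0.401% to 0.507% and 0.509% to 0.622% of all FPKM, and the ranges did not overlap, though they nearly met. Herpud1 alone was at 109 to 176 FPKM in the sedentary and 375 to 454 FPKM in the exercised livers. The separation of the sums therefore rests in large part on this 1 gene. P4hb, Calr, Ppib, Hsp90b1 and Hspa5 had the highest means in the sedentary livers. After exercise the mean FPKM was lower for P4hb (437 to 429) and Ppib (243 to 230), and higher for Calr, Hsp90b1 and Hspa5.

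Set beside the promoter matches, the 11 members with either stress element comprised 9 that were higher, 0 that were lower and 2 that did not pass, with a median log2 fold change of 0.40. The 24 members with a window and no exact match to either element comprised 8 higher and 3 lower genes, with a median of 0.07. Xbp1, Atf6b and Dnajc10 were among the latter. The 7 members without a window are in neither count. Of them Hyou1, Manf, Hspa13, Atf6 and Erp29 were higher, and Derl1 and Sec61a1 did not pass. Over all genes tested 21.1% were higher and 21.3% lower. Outside the 42 genes, 16 tested genes had either element in a window, and 5 of them were higher and 1 was lower, with a median of 0.03. These are counts of letters in a window and no test was made on them.

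Over the rest of the pathway the calls fell in both directions. Of 167 further genes on 6 lists, 164 could be tested, with a median log2 fold change of 0.02. Of these, 29 were higher (17.7%) and 24 lower (14.6%), each below the share over all genes tested (21.1% and 21.3%).

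Among 32 other genes of ER folding and oxidation, 5 were higher (15.6%) and 6 lower (18.8%). The largest changes among those that passed were in Ero1b, an oxidase that recharges the isomerases (1.47-fold, log2 0.56, edgeR adjusted p = 0.000484), Tmx4 (log2 0.34, edgeR adjusted p = 0.0141) and Sdf2, a relative of Sdf2l1 (log2 0.33, edgeR adjusted p = 0.000241). Ero1b went from 37.1, 40.9 and 49.4 CPM at the lowest, median and highest sedentary liver to 53.2, 60.5 and 76.1 CPM, without overlap, and its promoter window holds the ERSE.

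Among 43 other ERAD genes, 9 were higher (20.9%) and 5 lower (11.6%), against 21.1% and 21.3% over all genes tested. Yod1, a deubiquitinase that acts with the p97 ATPase, rose 2.65-fold (log2 1.41, edgeR adjusted p = 2.96e-06), with sedentary livers between 2.53 and 5.87 CPM and exercised livers between 9.80 and 13.0 CPM. Ube2g2, a ubiquitin-conjugating enzyme of this pathway, rose 1.80-fold (log2 0.85, edgeR adjusted p = 6.2e-08), with ranges of 36.9 to 45.6 CPM and 63.5 to 80.3 CPM. Herpud2, the paralog of Herpud1, rose 1.49-fold (log2 0.58, edgeR adjusted p = 9.07e-06). In none of these 3 did the groups overlap.

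Among 33 other genes of the translocon, signal peptidase and oligosaccharyltransferase, 5 were higher (15.2%) and 2 lower (6.06%), all by small amounts. The largest were Ssr3 (log2 0.21, edgeR adjusted p = 0.0185), Ssr2 (log2 -0.21, edgeR adjusted p = 0.026) and Magt1 (log2 0.20, edgeR adjusted p = 0.0211). Ssr2 lost its call without Exercise livers 3, 4 or 6 or sedentary livers 2 or 3 (log2 -0.16 to -0.20), and Magt1 without sedentary liver 2 (log2 0.17) or 3 (log2 0.17).

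Of 13 genes of the PERK-ATF4 arm, 4 were higher (30.8%), 2 lower (15.4%) and 7 did not pass. The 7 were Asns (log2 -0.43), Vldlr (-0.23), Atf3 (-0.13), Nupr1 (-0.10), Cebpg (0.06), Ppp1r15b (0.08) and Chac1 (0.50). Those higher were Sesn2 (2.95-fold), a stress-induced inhibitor of mTORC1, Trib3 (2.20-fold), a pseudokinase target of ATF4, Ppp1r15a (1.63-fold), which encodes the GADD34 subunit that reverses PERK signalling, and Ddit3 (1.22-fold), which encodes CHOP. Ddit3 was at 5.96, 6.30 and 8.54 CPM at the lowest, median and highest sedentary liver and at 7.57, 8.17 and 8.83 CPM after exercise (edgeR adjusted p = 0.0228), a call lost without sedentary liver 3 (log2 0.26, adjusted p = 0.052) or 6 (log2 0.26, adjusted p = 0.0537). Atf4 itself was lower, from 85.5, 98.0 and 120 CPM to 78.8, 82.9 and 90.5 CPM, and fell by 0.28 on the log2 scale (edgeR adjusted p = 0.00497), as did Eif2s1 (log2 -0.29), which encodes the subunit that PERK phosphorylates.

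Of 17 further UPR regulators, 1 was higher (5.88%) and 5 lower (29.4%). Map3k5, the kinase ASK1 that acts after IRE1, rose 2.67-fold (log2 1.42, edgeR adjusted p = 1.79e-09), with sedentary livers between 15.6 and 23.0 CPM and exercised livers between 47.7 and 55.5 CPM. Nfyb, a subunit of the NF-Y factor that binds the CCAAT part of the ERSE, fell by 0.72 on the log2 scale (edgeR adjusted p = 1.46e-06), with ranges of 18.0 to 21.6 CPM and 9.83 to 13.4 CPM. In neither gene did the groups overlap. The other lower genes were Bak1 (log2 -0.38), Nfyc (-0.24), Ufl1 (-0.19) and Creb3l3 (-0.18).

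Of 26 genes of the COPII coat that carries proteins out of the ER, and of its cargo receptors, 5 were higher (19.2%) and 4 lower (15.4%). Mia3, the TANGO1 receptor for large cargo, rose 1.55-fold (log2 0.63, edgeR adjusted p = 3.61e-06). Preb, the exchange factor that starts coat assembly, fell by 0.55 on the log2 scale (edgeR adjusted p = 4.14e-06), and Sec31b fell by 0.54 (edgeR adjusted p = 0.00139). Coat subunits of the Sec24 family differed among themselves, with Sec24d (log2 0.45) and Sec24b (0.34) higher and Sec24c (-0.25) lower.

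**Figure D4:**
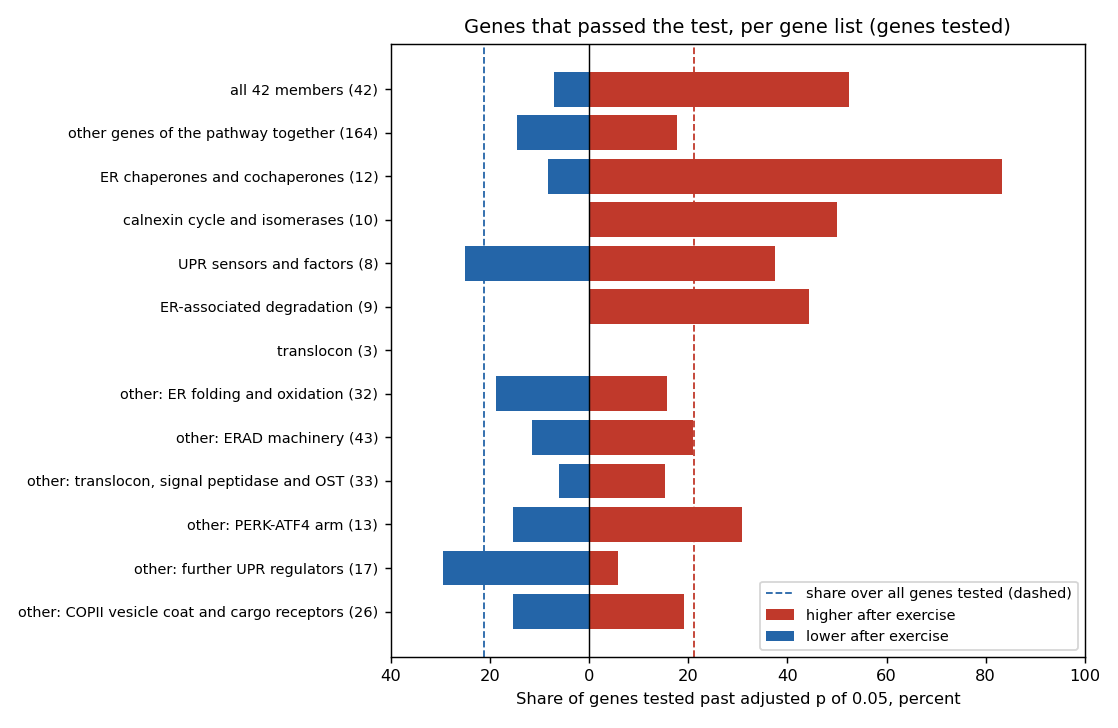
Share of the tested genes of each list that were higher (red, to the right) or lower (blue, to the left) after exercise, in percent, with the number tested in brackets and dashed lines at the shares over all genes tested, 21.1% and 21.3%. OST stands for oligosaccharyltransferase. The chaperones reach 83.3% higher, while the 164 other genes of the pathway lie at 17.7% higher and 14.6% lower.

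Markers of the cells in the tissue were checked because secretory cells are rich in these transcripts. The counts of markers that passed are to be set beside the shares over all genes tested, 21.1% higher and 21.3% lower. Hepatocyte markers were abundant throughout, summing to 130520 to 174298 CPM in the sedentary and 162646 to 182587 CPM in the exercised livers, and 4 of 10 were higher and 0 lower. Of 10 macrophage markers 0 passed, of 10 endothelial markers 4 were higher and 1 lower, of 10 stellate cell markers 0 were higher and 2 lower, and of 7 bile duct markers 1 was higher and 1 lower. The 3 tested markers of B and plasma cells did not pass, and the plasma cell gene Jchain had 13 to 34 counts in the sedentary and 11 to 28 in the exercised livers. Neither did the single T or NK cell marker, the 2 neutrophil markers or the 1 pancreatic acinar marker that could be tested. With lists this short, these counts do not show that a cell type changed in share. Whether the hepatocyte and endothelial markers that passed bear on the ER genes was not tested.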

How the data were processed

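Liver RNA from 6 Sedentary and 6 Exercise mice was sequenced with a BGI mRNA kit. The submitters' processing notes name Bowtie2 2.3.4.3, RSEM 1.3.1 and mm10 (GRCm38). The authors deposited an estimated count and an FPKM value per gene and library for 17432 genes, with FPKM scaled for length and depth. Whether counting used strand is not given in the sources used here.

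Groups came from the sample labels. Estimated counts, 31.3% of them not whole, were rounded and tested with edgeR 4.0.16 (R 4.3.3, TMM scaling), by its robust quasi-likelihood method on the 12344 genes that passed filterByExpr at 10 counts, and p-values were adjusted after Benjamini and Hochberg (threshold 0.05). The study names no test for the sequencing. CPM is TMM-scaled, and lowest, median and highest refer to the 6 livers of a group. FPKM served for levels between genes and for 1 alternative, on log2(FPKM + 0.1). The fit was tested on simulated data before use. The labels number the mice but do not describe them singly, so p-values measure the spread between these samples. No pair among 66 was identical. Counting error is small beside this spread (biological coefficient of variation 11.3%) except for scarce genes such as Derl3.

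The members and all gene lists were chosen with earlier results of these data known. All 42 members are named. Full levels were given for those with the largest changes in each role (3, or 2 for the translocon), for Hspa5, Hsp90b1, Xbp1, Ern1, Atf6, Eif2ak3 and Herpud1, and for called members that went against their role. From each further list the 3 largest called changes, Atf4, Ddit3 and Ero1b were named, and others named there were chosen after their values were seen. Gene positions are from GENCODE M21 and promoter sequences from RefSeq (GRCm38.p6), where Hyou1, Sec61a1, Manf, Erp29, Atf6, Hspa13 and Derl1 had no window. The alternatives were DESeq2 1.42.0, limma 3.58.1 (voom and FPKM), other scalings and filters, stricter thresholds, a replicate block and leaving out each liver. Python 3.11.15 was used for tables and figures.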

Additional observations from a re-analysis of the deposited data

Results flagged for a closer look

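In 84 groups of 6 livers (42 genes in each of 2 groups), the farthest liver was compared with its nearest neighbour relative to the whole range of the group (Dixon's test at the 95% level), and 5 stood apart where chance gives about 4.2. Of the exercised livers, liver 1 was far above the others for Hyou1 (250 CPM, next 182), Manf (169 CPM, next 133) and Pdia4 (177 CPM, next 132). Mbtps1 was at 55.0 CPM in sedentary liver 5, with the next at 47.7. Mbtps2 was at 5.85 CPM in exercised liver 6, with the next at 4.90. Without Exercise liver 1, Hyou1, Manf and Pdia4 kept their calls. Why these livers stood apart was not tested.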

How the results depend on the processing

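Of the 25 members that passed, 15 kept their call under each of 9 other filters, scalings and tests and without each liver in turn, thresholds aside. With no scaling beyond library size, 14 members were higher and 6 lower, as were 17 and 41 of the further pathway genes. limma on FPKM gave 14 and 6, and 16 and 43. These 2 scalings shifted the median of all genes to -0.0985 and -0.0932 and its calls to 1767 higher and 3735 lower, and to 1711 and 3713. They cost Hsp90b1, Dnajb11, Erp29, Uggt1, Pdia3, Pdia4, Eif2ak3 and Edem1 their calls and added Txndc5, Derl1 and Ssr1 as lower. Without a filter Hsp90b1 lost its call (adjusted p = 0.0752), and upper-quartile scaling added Txndc5 as lower (adjusted p = 0.0386). A threshold of 0.01 left 1 lower member and 9 lower further genes (15 and 20 higher). Over all 12344 genes tested, 1832 were higher and 1752 lower at that threshold. Asking for 1.5-fold beside the 0.05 threshold left 8 higher and 0 lower members, and 7 higher and 1 lower further genes. Over all genes tested it left 841 higher and 740 lower. Left-out livers gave 16 to 22 higher and 2 to 4 lower members, 24 to 34 higher and 17 to 24 lower further genes, and members' medians of 0.20 to 0.30. Over all genes these fits gave 2366 to 2670 higher and 2290 to 2571 lower. The median over the other alternatives was 0.12 to 0.26.

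The replicate numbers showed no strong pairing of the mice. Correlations of same-numbered livers ran from -0.099 to 0.16, and 2 of 6 numbers correlated best with their own. A weak pairing could be missed by such correlations. With a replicate block 21 members were higher and 4 lower, since Eif2ak3 lost its call (adjusted p = 0.0546) and Txndc5 passed as lower (adjusted p = 0.0476).

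Members that did not pass changed sign as follows. With no scaling beyond library size and with limma on FPKM, the log2 fold changes were -0.0255 and -0.0243 for P4hb, -0.0793 and -0.0828 for Ppib, -0.0157 and -0.0192 for Erp44, -0.0749 and -0.055 for Derl2, -0.0263 and -0.00673 for Edem2, -0.0729 and -0.0703 for Sec61a1, and -0.0754 and -0.0806 for Sec61b. Upper-quartile scaling gave -0.00687 for Ppib, -0.0014 for Derl2 and -0.00245 for Sec61b. Ern1 was at 0.00706 by limma-voom and 0.0020 with the replicate block. With a liver left out, the ranges were -0.0107 to 0.0519 (Ppib), -0.113 to 0.0588 (Ern1), -0.0701 to 0.0090 (Mbtps1), -0.129 to 0.0214 (Mbtps2), -0.00106 to 0.0459 (Derl2), -0.0155 to 0.61 (Derl3), -0.00584 to 0.0474 (Sec61a1) and -0.018 to 0.0618 (Sec61b).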
